A study of Mus musculus with 4 samples.

Results

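Noncoding RNA genes of the mouse testis were described by their level, class and genotype difference. They were chosen by transcript type and measured level: gene symbols were taken when each of their RefSeq transcripts carried a noncoding identifier and when the summed level averaged at least 10 CPM over the 4 libraries. CPM is the number of reads scaled to a common library total. This gave 592 of 1962 noncoding symbols and of 17924 symbols in all. Since the measured mean level chose the genes, their levels and ranks are given as a description without tests. The genotype difference was not itself a criterion, but some genes reached the threshold through a single genotype. Bulk RNA was sequenced from testes of male C57BL/6 mice kept on a normal diet for 18 weeks. Tas1r3+/+ mice (WT) gave 2 libraries and Tas1r3-/- mice (KO) gave 2. TAS1R3 is a subunit that sweet and umami taste receptors have in common, and the series compares testes with and without it. The labels name neither how the allele was made nor the age of the mice, and do not say whether the 2 libraries of a genotype came from separate animals.

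Testis transcribes an unusually broad part of the genome, and meiotic and haploid germ cells in particular make many long noncoding RNAs and copies of protein-coding genes that arose by retroposition. Most of these RNAs have no known role. A small number of noncoding RNAs do the same work in every cell: ribosomal RNA forms the ribosome, 7SK RNA restrains the elongation factor P-TEFb, 7SL RNA is the core of the signal recognition particle, and Neat1 scaffolds nuclear paraspeckles.

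The libraries differed in depth. Estimated from the spacing of low values, WT 1 and WT 2 held 1719356 and 1807694 reads and KO 1 and KO 2 held 748637 and 597936, so depth and genotype cannot be told apart. The value of 3 reads ranged from 1.66 CPM in WT 2 to 5.02 CPM in KO 2. Tas1r3 itself had 13.8, 20.5, 1.34 and 0 CPM in the same order. All 12 germ cell markers were in the table, with summed levels between 27200 and 38202 CPM. Summed Leydig cell markers lay between 1550 and 1823 CPM and Sertoli cell markers between 1099 and 1352 CPM. Summed blood cell markers lay at 47.8, 186, 35.8 and 53.9 CPM in WT 1, WT 2, KO 1 and KO 2. Markers of epididymis and fat summed to 96.9, 53.4, 46.9 and 49.7 CPM in the same order. Of these, Crisp1 had 40.7 CPM in WT 1 and 0 CPM in WT 2, KO 1 and KO 2.

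The sequences of the structural RNAs and of the microRNA precursors among the 592 genes are shown first, because these RNAs can be recognised by short known elements. A stretch of 18S rRNA is given from the GENCODE M21 record of Gm42418 (GRCm38, chr17:39846958-39847157, plus strand). That record begins at base 606 of the reverse complement of a ribosomal RNA record of 1849 bases, and matches it over 1244 bases. The ribosomal RNA record is listed on the minus strand, and its length is that of Rn18s in the deposited table. Capitals mark a universally conserved loop of the small ribosomal RNA. The first 120 bases of 7SK (Rn7sk, GRCm38, chr9:78175514-78175633, minus strand, GENCODE M21) follow, with the 3 GATC elements in capitals, the motif through which HEXIM1 binds the 5′ stem. The mature sequences of Mir6236 (RefSeq, GRCm38.p6, chr9:110281353-110281371, plus strand) and Mir6240 (RefSeq, GRCm38.p6, chr5:114851973-114851998, plus strand) have their seeds, bases 2 to 8, in capitals.
18S rRNA: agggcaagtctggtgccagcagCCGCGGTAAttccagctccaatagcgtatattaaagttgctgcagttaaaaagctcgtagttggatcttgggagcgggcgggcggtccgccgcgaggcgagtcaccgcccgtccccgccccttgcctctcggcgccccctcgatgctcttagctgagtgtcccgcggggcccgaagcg
Rn7sk: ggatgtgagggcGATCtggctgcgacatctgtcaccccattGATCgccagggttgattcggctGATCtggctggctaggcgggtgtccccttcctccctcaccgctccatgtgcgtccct
Mir6236: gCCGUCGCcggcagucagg
Mir6240: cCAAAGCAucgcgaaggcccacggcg
The seeds of Mir6236 and Mir6240 differ. The deposited levels of both are those of the precursors (123 and 117 bases), and say nothing of the mature forms. Neither mature sequence was found in another GENCODE M21 record. No record for the ribosomal RNA precursor or the large-subunit ribosomal RNA was found there, so a match to those RNAs was not tested.

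By class, 485 of the 592 genes were long noncoding, 99 were pseudogenes, 3 were other stable small RNAs, 2 were ribosomal RNA, 2 were microRNA precursors and 1 was a small nucleolar RNA host gene (Snhg3). Small nucleolar and Cajal body RNAs were not represented, and the only such symbol in the table lay under 10 CPM. Pseudogenes reached the threshold in 99 of 212 cases and long noncoding genes in 485 of 1719. The small nucleolar RNA host genes, which carry small nucleolar RNAs in their introns, reached it in 1 of 16 cases. Most symbols were provisional, with 310 Rik and 167 Gm names. RefSeq of GRCm38.p6 gave a gene type for 589 of the 592 and listed 10 of them as protein coding, among them Klhl11, Ghrl and Dand5. The deposited table nevertheless holds noncoding transcripts alone for these symbols. Klhl11, Ghrl and Dand5 are counted here as long noncoding, the class of all genes that fell in no other. GENCODE M21 (GRCm38) held 513 of the symbols and listed 41 as protein coding, 7 of which are coding in both.

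The median level was 22.5 CPM. Only 54 genes had 100 CPM or more, 273 lay between 20 and 100 CPM, and 265 lay under 20 CPM. Pseudogenes had a median of 39.9 CPM (32.3 CPM per kb) and long noncoding genes a median just under 20 CPM (20.2 CPM per kb). Of the 592 genes, 441 had at least 10 CPM in every library, 20 reached 10 CPM on average in WT alone and 39 in KO alone. For these 20 and 39 genes the choice and the genotype difference are not independent. Just inside the threshold were 4921513I03Rik at 10.1, 4933416M07Rik at 10.03 and Gm15350 at 10.02 CPM. Just outside were Alkbh3os1 at 9.95, 4931431C16Rik at 9.94 and Gm6639 at 9.85 CPM. All 592 also passed the low-value filter of the genotype test.

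Rn18s, the 18S rRNA of the small ribosomal subunit, stood at 13863 and 11948 CPM in WT 1 and WT 2 and at 19348 and 17573 CPM in KO 1 and KO 2. It was the highest of all genes in each of the 4 libraries, ahead of the protamine gene Prm2. Both KO libraries lay above both WT libraries. Rn18s took 1.39%, 1.19%, 1.93% and 1.76% of the CPM of WT 1, WT 2, KO 1 and KO 2. These are shares of the counted reads, not of the RNA in the tissue. A contribution of library preparation to the difference was not tested. Rn45s, the ribosomal RNA precursor, had 1229 and 1379 CPM in WT, against 2085 and 1277 CPM in KO, so the genotypes overlapped. In the deposited table (mm39) Rn18s, from 40157245 to 40159094 on chromosome 17, lies inside Rn45s, from 40153888 to 40159721 on the same strand. Reads of the shared stretch could have been counted for either. Per length, Rn18s was 35.6, 27.3, 29.3 and 43.4 times as high as Rn45s in WT 1, WT 2, KO 1 and KO 2, with no separation of the genotypes.

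**Figure D1:**
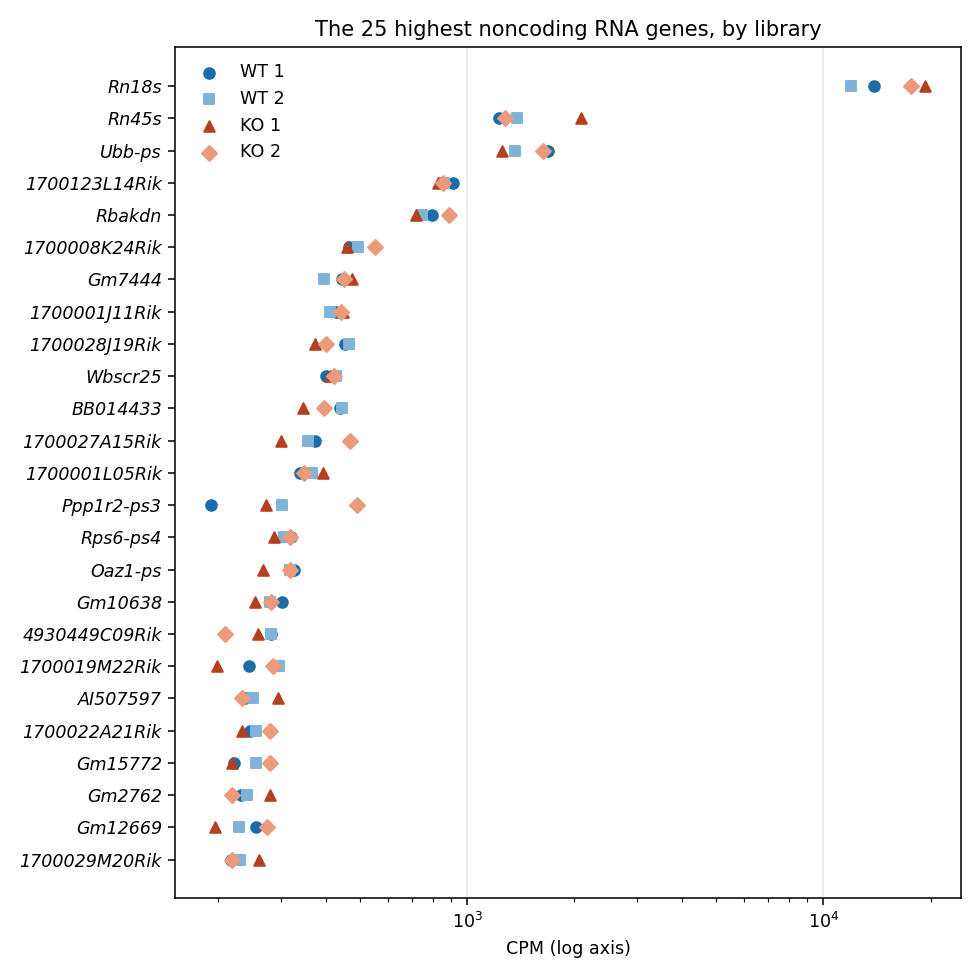
Level in CPM (log axis) of the 25 noncoding RNA genes with the highest mean, with 1 point per library. Rn18s lies about an order of magnitude above all others, between 11948 and 19348 CPM, and for most of the rest the 4 libraries lie close together.

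Together the 592 genes took 4.40% and 4.16% of the CPM of WT 1 and WT 2 and 4.78% and 4.98% of KO 1 and KO 2. The KO mean was higher by 0.601 percentage points, and both KO libraries lay above both WT libraries. Without Rn18s the shares were 3.02%, 2.97%, 2.85% and 3.23%, the difference was 0.0452 percentage points, and the genotypes overlapped. Ribosomal RNA took 1.51% and 1.33% in WT and 2.14% and 1.88% in KO. Long noncoding genes took 1.86% and 1.84% in WT and 1.71% and 2.00% in KO. Pseudogenes took 1.01% and 0.969% in WT and 0.897% and 1.07% in KO. The spread between the 2 KO libraries thus exceeded the genotype difference in the last 2 classes. With 2 libraries per genotype no permutation test can reach a two-sided p under 0.33, and none was made for these sums. In bulk tissue fewer cells of a type and less RNA per cell cannot be told apart.

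**Figure D2:**
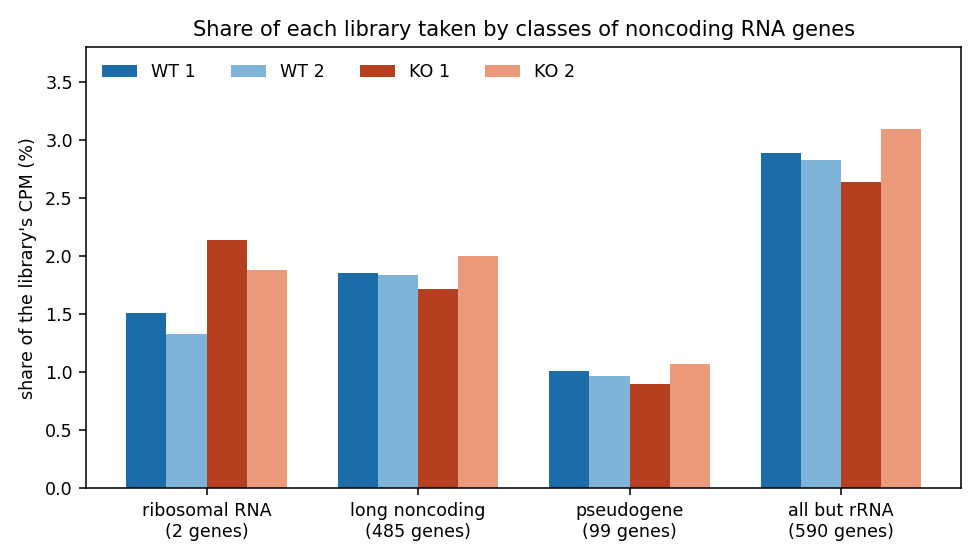
Share of each library's CPM (%, bars from 0) taken by ribosomal RNA, long noncoding genes, pseudogenes and all noncoding genes but ribosomal RNA, with 1 bar per library. Ribosomal RNA is higher in both KO libraries (2.14% and 1.88%) than in both WT libraries (1.51% and 1.33%), and in the other groups KO 1 is the lowest and KO 2 the highest of the 4.

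Among the other stable RNAs, 7SK (Rn7sk), printed above, stood at 126, 106, 171 and 117 CPM in WT 1, WT 2, KO 1 and KO 2. Its highest value was in KO 1 and the genotypes overlapped. Rn7s1 and Rn7s2, the 7SL RNAs, were listed with identical values of 42.7, 33.2, 16.7 and 39.3 CPM. Their sequences of 300 bases in GENCODE M21 are 100% identical, so their reads cannot be assigned to either. The precursor Mir6236 stood at 36.6, 31.5, 34.7 and 46.8 CPM and Mir6240 at 11.6, 18.8, 18.7 and 26.6 CPM. Snhg3 was close to the threshold at 9.89, 11.1, 13.4 and 6.69 CPM. Genotypes overlapped for all of these.

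The highest long noncoding genes were Rbakdn, 1700008K24Rik and 1700028J19Rik. GENCODE M21 lists 1700028J19Rik, and BB014433 below, as protein coding. Rbakdn stood at 798, 748, 719 and 890 CPM in WT 1, WT 2, KO 1 and KO 2. It has 3 listed transcripts over the same 5′ and 3′ ends, and one of them, of 528 bases, was listed at 115, 107, 77.8 and 14.9 CPM while the summed gene was highest in KO 2. 1700008K24Rik stood at 464, 493, 461 and 552 CPM. 1700028J19Rik had 452 and 466 CPM in WT, against 374 and 401 CPM in KO. BB014433 had 439 and 444 CPM in WT and 345 and 395 CPM in KO, and for both genes the KO values were below the WT values. Wbscr25, which lies on the opposite strand of the tight junction gene Cldn3, varied little, with 400, 428, 411 and 423 CPM.

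1700027A15Rik stood at 373, 358, 299 and 470 CPM, with the extremes in the 2 KO libraries. It lies beside Tnp1, which encodes a transition protein that replaces histones in spermatids. One of its 2 listed transcripts starts 136 bases from the start of Tnp1 on the opposite strand, but this transcript was listed at 1.38, 1.90, 0.00 and 4.38 CPM, so nearly all of the level came from the other, which starts inside the locus. Tnp1 itself had 5457, 5627, 4590 and 8148 CPM. KO 1 was lowest and KO 2 highest for both genes.

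Of 43 widely studied noncoding RNAs, 36 were in the table and 11 were among the 592 genes. Tsx, with 23.4 to 37.4 CPM, is not among the 592 because its listed transcript is coding. Malat1, a nuclear speckle RNA, stood at 71.2, 57.5, 109 and 56.5 CPM in WT 1, WT 2, KO 1 and KO 2, and Norad, which binds Pumilio proteins, at 56.6, 74.0, 66.2 and 40.2 CPM. Tug1, which mice need for male fertility, had 37.2, 39.3, 41.5 and 40.1 CPM and was the steadiest of the 3. The imprinted antisense RNA Kcnq1ot1 had 26.7 and 28 CPM in WT and 16.3 and 20.4 CPM in KO. The imprinted RNA Peg13 had 18.5 and 18.7 CPM in WT and 8.05 and 13.2 CPM in KO. For both, each KO value lay below each WT value. Oip5os1 (Cyrano) had 15.6 and 11.6 CPM in WT and 18.7 and 20.1 CPM in KO. Pvt1, next to Myc, had 7.84 and 7.05 CPM in WT and 10.6 and 18.4 CPM in KO. With means of 7.44 CPM in WT and 14.5 CPM in KO, Pvt1 reached the threshold through KO alone. Miat (8.29 to 13.7 CPM) and Mirg (9.03 to 17.3 CPM) were lower and overlapped between genotypes.

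Pseudogenes included several of the highest genes, and for some the level could not be separated from that of the gene they copy. The parent named in the symbol was in the table for 24 pseudogenes. Per length, the pseudogene was higher than its parent in 15 of 24 pairs. Both sequences were in GENCODE M21 for 18 pairs, and identity over the aligned part ranged from 67.2% to 100% with a median of 97.4%. An identical pair and a divergent pair are shown over 60 coding bases from the parent's start codon (GENCODE M21, GRCm38), with bases that differ within a pair in capitals. Rps6-ps4 (record at chr2:75191073-75191822, minus strand) and Rps6 (chr4:86854660-86857412, minus strand) do not differ in the stretch, and Ppp1r2-ps7 (chrX:22461632-22462394, plus strand) and Ppp1r2 (chr16:31251537-31275277, minus strand) differ at 9 bases.
Rps6-ps4: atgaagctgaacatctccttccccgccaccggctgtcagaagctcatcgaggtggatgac
Rps6: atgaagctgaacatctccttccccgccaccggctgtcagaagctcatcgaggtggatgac
Ppp1r2-ps7: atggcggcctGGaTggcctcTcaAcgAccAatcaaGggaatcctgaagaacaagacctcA
Ppp1r2: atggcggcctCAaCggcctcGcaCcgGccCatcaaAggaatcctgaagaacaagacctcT

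Rps6-ps4, the intronless copy of a gene for a small-subunit ribosomal protein, was listed at 319, 305, 287 and 318 CPM in WT 1, WT 2, KO 1 and KO 2. Rps6 itself, a gene that every cell uses, was listed at no more than 3.46 CPM in any library. The pair is 100% identical over 750 aligned bases, so the listed values do not show which copy was transcribed. Oaz1-ps, a copy of the antizyme gene that limits polyamines, was listed at 326, 318, 266 and 318 CPM, against 23.8, 16.2, 12.9 and 35.1 CPM for Oaz1, with 99.7% identity over 685 bases. Summed, the Oaz1 pair had 350, 334, 279 and 353 CPM. Neither sum separated the genotypes.

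Atp6v0c-ps2 copies the gene of the proton-pore subunit of the vacuolar ATPase, with 99.8% identity over 465 bases. The pseudogene was listed with 44.1 and 74.1 CPM in WT, against 88.9 and 83.9 CPM in KO, while Atp6v0c was listed with 51.3 and 34.3 CPM in WT, against 19.2 and 18.7 CPM in KO. Neither member of the pair overlapped between genotypes, in opposite directions. Their sum of 95.4, 108, 108 and 103 CPM did overlap.

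Ppp1r2-ps7 is 76.4% identical to Ppp1r2, the gene of an inhibitor of protein phosphatase 1, and stood at 72.9, 66.1, 63.9 and 85.5 CPM against 94.0, 100.1, 115 and 130 CPM for Ppp1r2. Ppp1r2-ps3 is 97.5% identical to the same parent and stood at 191, 301, 272 and 491 CPM, with the lowest value in WT 1 and the highest in KO 2. Ubb-ps, named for the polyubiquitin gene Ubb, had 1687, 1366, 1254 and 1631 CPM and was the highest pseudogene. Ubb had between 5638 and 6260 CPM. 1700123L14Rik, a pseudogene in RefSeq and protein coding in GENCODE M21, stood at 912, 863, 827 and 856 CPM. Gm7444 (395 to 476 CPM) and 1700001J11Rik (412 to 449 CPM) were next.

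**Figure D3:**
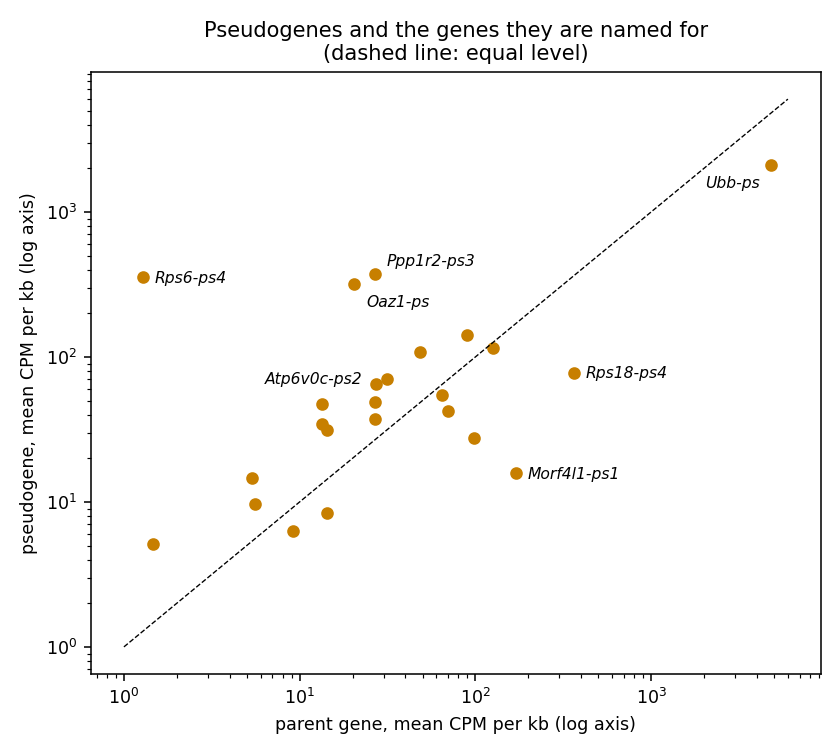
Mean CPM per kb over the 4 libraries of 24 pseudogenes (y, log axis) against the gene each is named for (x, log axis), with the dashed line marking equal levels. Rps6-ps4, Oaz1-ps and Ppp1r2-ps3 lie far above the line, at 357, 319 and 372 CPM per kb, whereas Rps18-ps4 and Morf4l1-ps1 lie below it.

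Some features of the genes were not criteria of their choice. CPM is not divided by length, however, so length and the choice by level are not independent. The median transcript length of the 592 genes was 1072.5 bases. It was 2872 bases for the 9553 genes of at least 10 CPM with a coding transcript. For noncoding symbols under 10 CPM it was 1438 bases. An unspliced transcript was listed for 105 (17.7%), most of them pseudogenes (60 of 99, or 60.6%), against 7.84% of the long noncoding genes and 2.87% of the coding genes. On the X chromosome lay 17 of the 592 (2.87%), close to the 2.32% of coding genes, but 9 of these 17 were pseudogenes. No overlap with a coding transcript was found for 387 (65.4%), overlap on the opposite strand alone for 180 (30.4%), and overlap on the same strand for 25 (4.22%). For noncoding symbols under 10 CPM the corresponding shares were 66.9%, 29.9% and 3.14%. A start shared with a coding transcript of the same strand was listed for 5 genes (0.845%), and for 0.292% of the lower noncoding symbols. None of these differences in share was tested. A start within 1000 bases of the start of a coding transcript on the opposite strand was found for 140 (23.6%), and for 27.2% of the lower noncoding symbols.

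Opposite-strand genes with the suffix os, named for a coding partner, numbered 26. All 26 partners were in the table, 16 overlapped the noncoding gene, and 18 of the 26 noncoding genes were higher per length than their partner. Kcnmb4os1 was the highest, at 212, 165, 154 and 290 CPM in WT 1, WT 2, KO 1 and KO 2, against 63.2 to 66.0 CPM for the potassium channel subunit gene Kcnmb4. Itpr3os had 85.5, 91.1, 68.8 and 93.1 CPM against 27.3 to 38.9 CPM for Itpr3, the gene of an inositol trisphosphate receptor. Hoxd3os1 had 38.9, 45.4, 49.4 and 24.8 CPM, whereas the homeobox gene Hoxd3 had at most 4.34 CPM. Cep112os1 showed the reverse, with 16.9 to 24.0 CPM against 123 to 143 CPM for Cep112. The sources used here do not state whether counting used strand, so reads from overlapping opposite-strand genes may have been shared between them.

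No noncoding RNA gene passed the genotype test, which was limma on log2(CPM + 1) with Benjamini-Hochberg adjustment over 17744 genes. The smallest adjusted p among the 592 was 0.942, and 1 gene of the whole table passed (0.00564%). Tas1r3 itself did not pass, with a log2 fold change of -3.54 (SE 0.60) and a limma adjusted p = 0.942. The lack of calls therefore does not show that the noncoding genes were unchanged. At an unadjusted p under 0.05 there were 36 of the 592 (6.08%), 14 higher and 22 lower in KO. With precision weights the split was 26 higher and 21 lower. Over all genes the share was 4.69%, with 1.37% higher and 3.33% lower, and over coding genes of at least 10 CPM it was 3.3%. In 100 of the 592 (16.9%) both KO values lay above both WT values and in 95 (16.05%) below. The corresponding shares of all genes were 15% and 19.4%, so the counts were near the background. The median log2 fold change, KO over WT, was 0.00 for the 592 genes and -0.05 for all genes tested. It was under 0.5 in size for 477 genes (80.6%) and over 1 for 16.

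The spread between libraries of a genotype was larger in KO. For the 273 genes of 20 to 100 CPM the median absolute log2 ratio was 0.23 between the WT libraries and 0.39 between the KO libraries. For the coding genes of the same level it was 0.18 and 0.31. KO 2 held the highest of the 4 values for 244 of the 592 genes and KO 1 the lowest for 233. The calls depended on single libraries. Without KO 1, 61 of the 592 passed the adjusted threshold, 45 of them higher in KO, while 8.37% of all genes passed. Without KO 2, 43 passed, 31 of them lower in KO, against 3.75% of all genes. Without WT 2, 1 passed (H2af-ps2, lower; 0.0464% of all genes), and without WT 1 none did (0.0233%), with 20 of the 592 at an unadjusted p under 0.05. In the fits without a KO library the lone one left is assumed to vary like the 2 WT libraries. With precision weights from the estimated reads Rn18s alone passed (0.0282% of all genes). With the replicate number as a block, Gm20605 and Gm44505 passed (0.13%).

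**Figure D4:**
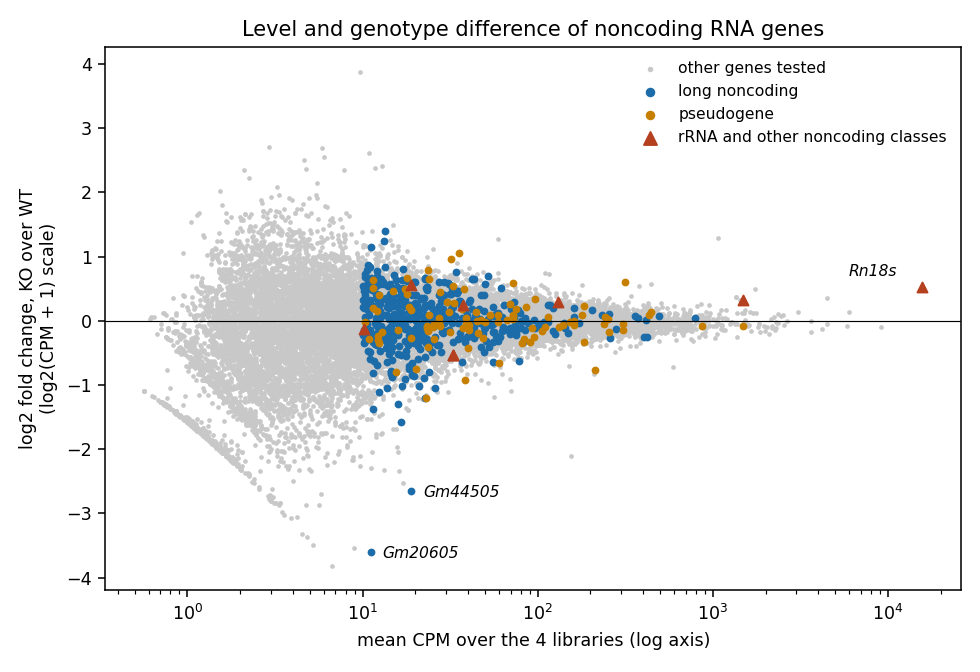
Log2 fold change, KO over WT, of log2(CPM + 1) values (y) against mean CPM (x, log axis) for long noncoding genes (blue), pseudogenes (orange), ribosomal RNA and the remaining noncoding classes (red triangles) and all other genes tested (grey). The noncoding genes lie around 0 within the cloud of other genes, and Gm20605 at -3.60 lies farthest from it.

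Rn18s had a mean of 12906 ± 1354 CPM in WT and 18460 ± 1255 CPM in KO (SD, n = 2 each). This was a log2 fold change of 0.52 (SE 0.14), with a limma adjusted p = 0.942 and an unadjusted p = 0.00562. With precision weights the log2 fold change of 0.52 passed in limma (adjusted p = 9.23e-05), as it did without KO 1 (0.45) and without KO 2 (0.59), where the KO arm is 1 library. It did not pass under any other setting, and the unadjusted p was 0.0878 without a mean trend and 0.0527 with the replicate block. Without WT 1 and without WT 2 the log2 fold changes were 0.63 and 0.41, with limma adjusted p-values close to 1. Quantile normalization, which gives the highest gene the same value in every library, sets the fold change to 0. Of 46 genes tested whose proteins make or bind these RNAs (among them RNA polymerase I, 18S maturation, snoRNP and 7SK factors), 0 passed in limma. At an unadjusted p under 0.05 there were 2 (4.35%), near the 4.69% of all genes. Of these, Taf1b, of the RNA polymerase I initiation factor, was higher in KO, with 35.9, 30.4, 46.8 and 47.5 CPM in WT 1, WT 2, KO 1 and KO 2. Nop10, of the box H/ACA particle, was lower, with 68.9, 79.0, 48.4 and 58.5 CPM. Other genes of the same lists had means on the other side, such as Ubtf (WT mean 41.0 CPM, KO mean 34.3 CPM) and Nhp2 (WT mean 19.4 CPM, KO mean 25.7 CPM). The KO libraries with more Rn18s were also those of lower depth.

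Of the genes without overlap between genotypes, Gm20605 had the smallest unadjusted p (0.000446). It had 19.7 and 22.6 CPM in WT, against 2.22 and 0.03 CPM in KO, about 75 reads against 2. The ratio of KO to WT by these estimated reads was 0.0698 (exact 95% interval 0.00831 to 0.261, counting error only), and the log2 fold change -3.60 (SE 0.63), with a limma adjusted p = 0.942. Gm20605 lies on chromosome 5, from 137627385 to 137641159 in mm39. It begins at the same base and on the same strand as Lrch4, which encodes a leucine-rich repeat protein, and runs on over Sap25. Lrch4 had 115, 109, 135 and 114 CPM in WT 1, WT 2, KO 1 and KO 2. The sum of the 3 genes was 137, 131, 147 and 120 CPM, so the locus as a whole overlapped between the genotypes.

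Of the 592 genes, 5 share their start with a coding transcript of the same strand, and their median log2 fold change was -1.37. Of these, Gm20605, Gm44505 and Gm44502 reached 10 CPM on average in WT alone, so the median is not independent of the choice. That median is the value of a single gene, Gm44502, and it was -0.51 without KO 1, -1.73 without KO 2, -2.28 without WT 1 and -0.45 without WT 2. Besides Gm20605, Gm44505 shares the start of the zinc finger gene Zfp91 and had 23.8, 32.8, 0.04 and 19.3 CPM in WT 1, WT 2, KO 1 and KO 2. Only KO 1 was low, the log2 fold change of Gm44505 was -2.66 with all libraries and -0.51 without KO 1, and the sum with Zfp91 was 233, 248, 249 and 219 CPM. Gm44502, which shares the start of the choline kinase gene Chkb, had 7.25, 28.3, 3.67 and 6.77 CPM, where WT 2 alone was high. The other two, Gm20716 (150, 166, 149 and 127 CPM, beginning with Dpm1) and Gm20517 (40.8, 37.5, 45.4 and 75.6 CPM, beginning with Med20), varied less. Division of reads between transcripts with shared exons was not tested as a part of these differences.

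Of the remaining genes with the smallest unadjusted p, 1 was higher and 7 were lower in KO. 4933411G06Rik, a pseudogene, had 21.5 and 21.3 CPM in WT, against 45.4 and 40.1 CPM in KO, a log2 fold change of 0.96 (SE 0.23, limma unadjusted p = 0.00319). 1700084F23Rik had 22.1 and 24.3 CPM in WT, against 9.35 and 8.36 CPM in KO, a log2 fold change of -1.30 (SE 0.32, limma unadjusted p = 0.00364). 4933438K21Rik had 33.2 and 37.0 CPM in WT, against 17.6 and 15.4 CPM in KO, a log2 fold change of -1.04 (SE 0.26). In these 3 genes the values within a genotype lay close together compared with the distance between genotypes. This follows in part from picking them by a small unadjusted p. None of the 3 passed adjustment over all genes. 1700008J07Rik had 97.0 and 94.7 CPM in WT and 64.8 and 58.4 CPM in KO. 1700012D01Rik, 1700026D11Rik and 1700030C10Rik had KO values between 6.68 and 17.6 CPM and WT values between 17.1 and 31.3 CPM. Like Gm20605, the genes 1700084F23Rik, 1700012D01Rik and 1700026D11Rik reached 10 CPM on average in WT alone. Their KO means were 8.86, 8.68 and 7.52 CPM.

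Neat1 was the best-known RNA of this set. It had 61.2 and 73.9 CPM in WT, against 38.7 and 47.5 CPM in KO, a log2 fold change of -0.64 (SE 0.21, limma adjusted p = 0.942, unadjusted p = 0.0157). The short transcript was listed with 51.9 and 60.2 CPM in WT, against 34.0 and 34.7 CPM in KO, without overlap. The long transcript, which is the one that builds paraspeckles, was listed with 9.34 and 13.7 CPM in WT, against 4.73 and 12.8 CPM in KO, with overlap. Since the authors' counting divided reads between transcripts, the levels of the short and the long transcript are not separate measurements. Near Tas1r3 itself, within 5 Mb on chromosome 4, a single one of the 592 genes was found. This was Gm13112, at 8.14 and 10.3 CPM in WT, against 13.4 and 15.7 CPM in KO.

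**Figure D5:**
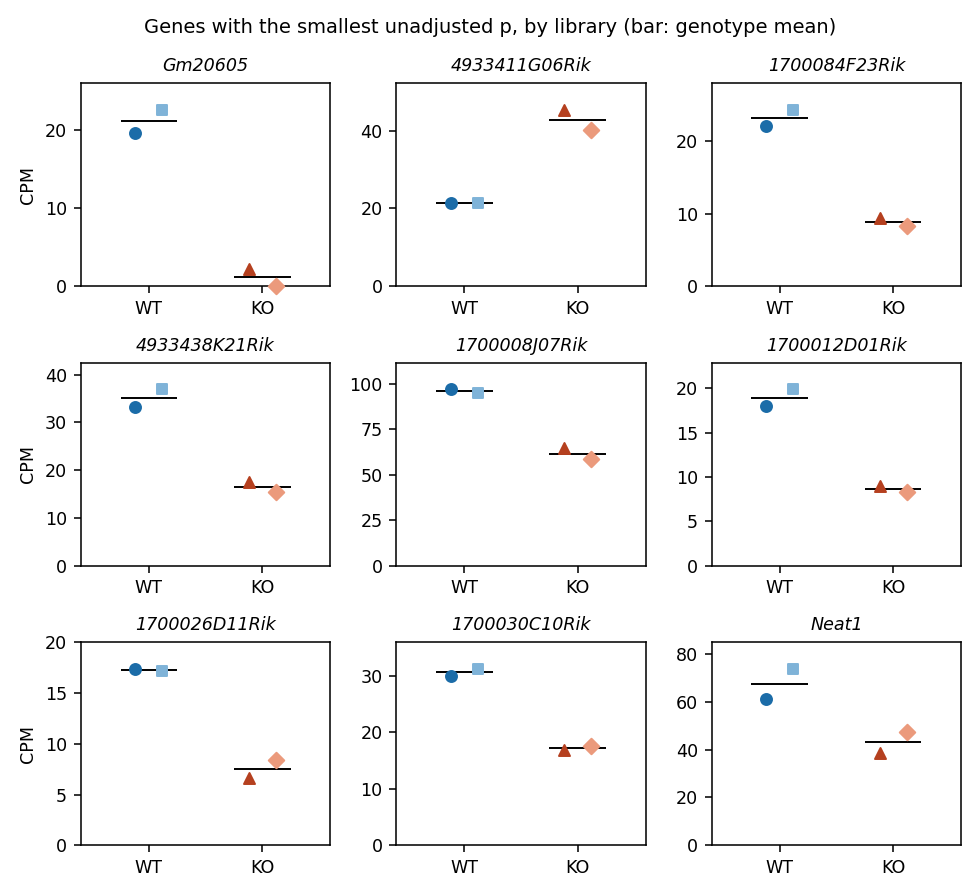
CPM per library (points; WT 1 circle, WT 2 square, KO 1 triangle, KO 2 diamond; axes from 0) of 9 genes whose genotypes did not overlap, ranked by unadjusted p and shown without Rn18s, with a bar at each genotype mean. 4933411G06Rik is higher in KO and the other 8 are lower, and none had an adjusted p under 0.05.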

How the data were processed

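Total RNA of 4 testes libraries (2 WT, 2 KO) was sequenced after preparation with an Ion Torrent total RNA kit, per the labels' protocols. STAR and Partek were used with mm39, per the submitters' processing notes; the sources used here do not state their versions, settings or use of strand. The deposited tables hold CPM for each RefSeq transcript, which the authors scaled to the same total in every column. The series table and the sample tables held the same values in 4 of 4 columns.

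Values were summed per gene symbol over 29342 transcripts. The 17744 genes that reached 1 CPM in 2 or more libraries entered a limma fit (version 3.58.1, R 4.3.3) of log2(CPM + 1), using a mean trend. Benjamini-Hochberg adjustment ran over all of them, with a threshold of 0.05. Fold changes on that scale understate changes of low genes. P-values measure the spread between these libraries, which may be technical. Reads were estimated from the commonest low values (18 of 20 as whole multiples within 1%), and since the authors' counting divided reads between transcripts, read numbers are approximate. Intervals and the floor of 3 reads cover counting error only.

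Classes came from symbols and from RefSeq gene types, with long noncoding for all genes in no other class. The gene types are those of GRCm38.p6. That build differs from mm39, so its coordinates were used for printed sequences alone, and positions of genes are as the deposited table gives them. A gene was called unspliced when its transcript length equalled its genomic span. Pseudogenes were aligned to their parents with Biopython 1.88 (local alignment). The coding frame of a parent was its longest open reading frame.

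The genes, classes and lists were chosen with earlier results of these data known. Genes named are Rn18s, the highest overall and per class, the 10 non-overlapping genes with the smallest unadjusted p (Rn18s among them), well-known RNAs, and those at the threshold; pseudogene pairs, os genes and genes sharing a start were picked after their values were seen. Alternatives covered the pseudocount (0.1 and 5 CPM), the filter, scaling, the mean trend, precision weights, the replicate number as a block, each library left out, and the level threshold.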

Additional observations from a re-analysis of the deposited data

How the results depend on the processing

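The count of noncoding genes with an adjusted p under 0.05 stayed at 0 under both other pseudocounts, both other filters, median ratio scaling, quantile normalization, rescaling without Rn18s and the fit without a mean trend. It was 1 with precision weights and 2 with the replicate block, and ranged from 0 to 61 with single libraries left out. The count at an unadjusted p under 0.05 was 22 without a mean trend and ranged from 20 to 152 with single libraries left out, against 36. Over the whole table, where 1 gene passed, 0 passed with a pseudocount of 0.1 CPM and without a mean trend, 5 with precision weights and 23 with the replicate block, and between 4 and 1463 with single libraries left out. The log2 fold change of Rn18s passed with precision weights (0.52), ranged from 0.41 to 0.63 with single libraries left out, and was 0 under quantile normalization. The cause of these shifts was not tested, other than that fits without a KO library take their spread from the deeper WT pair. A threshold of 5 CPM gave 926 genes and 20 CPM gave 327. Of the other 126 values for named genes, 112 kept their direction and side of the threshold and 14 newly passed; none reversed. The replicate numbers did not pair the libraries (correlation of deviations -0.01 between WT 1 and KO 1 over 17744 genes), so the block says nothing of the strength of an effect. Scaling moved the median of all genes by less than 0.1 on the log2 scale. Depth limits low genes in KO most, where 3 reads are worth 4.01 and 5.02 CPM.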
